A study of Caenorhabditis elegans with 6 samples.

Results

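The insulin/FOXO pathway of *C. elegans* was followed here through 10 genes that run from the insulin receptor to its transcription factors, chosen by gene name from the 31180 genes of an HS against CTRL comparison. The genes are daf-2, ist-1, age-1, pdk-1, akt-1, akt-2, sgk-1, daf-18, daf-16 and pqm-1, and each was found in the table by its WormBase identifier. N2 wild-type animals were grown on OP50 bacteria at 20°C to the L4 stage, the last larval stage, and were either left untreated (CTRL) or heat shocked at 35°C for 4 h (HS). Whole-animal RNA from 3 independent biological replicates per condition was depleted of ribosomal RNA and sequenced as stranded libraries. Both groups are N2, and no pathway gene was mutated or silenced in either.

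Insulin-like peptides bind the receptor DAF-2, which activates the PI3 kinase AGE-1 to make the membrane lipid PIP3. PIP3 recruits the kinases PDK-1, AKT-1 and AKT-2. PDK-1 phosphorylates the AKT kinases, and these phosphorylate the FOXO transcription factor DAF-16 and hold it in the cytoplasm. The lipid phosphatase DAF-18 removes PIP3 and so opposes AGE-1. When signaling through DAF-2 is low, DAF-16 enters the nucleus and turns on genes for stress resistance and longevity, while the zinc finger factor PQM-1 leaves it. This pathway is best known in the worm for its control of dauer formation, life span and resistance to heat, and much of its control acts on protein activity and location, which RNA levels do not measure.

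For each gene the table gives 1 mean normalized count taken across all 6 libraries, together with a log2 fold change (HS over CTRL) and the standard error of that change. Values of single libraries were not used, so this standard error from the authors' model is the only measure of error, and library depth was not read. All p-values below are 2-sided Wald tests adjusted over 21477 genes by the Benjamini-Hochberg method. A gene was called when its change was 2-fold or more, its adjusted p lay below 0.01 and its mean count was 100 or higher. As the mean is taken over both conditions, a gene can reach 100 through 1 condition alone. Among the 9828 protein-coding genes (PCGs) tested at this mean count, 8.14% were called as falls and 11.3% as rises, and the median log2 fold change was -0.09. The authors filtered their rising PCGs for reads likely to come from readthrough of an upstream gene, from intronic non-coding RNAs or from repeats. No such filter was applied here, so the rises below may include such reads. The heat shock genes hsp-16.2 and hsp-70 had log2 fold changes of 9.09 and 8.37, which fixes the direction of the comparison. Of 15 tissue markers, 14 reached the mean count of 100, and the remaining one, unc-119 of neurons, had a mean of 67.3. The epidermal collagens dpy-7 (log2 fold change 5.61) and rol-6 (5.90) and the muscle myosin myo-3 (1.26) were called as rises, and the vitellogenin vit-6 (-2.18) as a fall. The other 10 of the 14 were not called. Among them, the intestinal elt-2, ges-1 and vha-6 had log2 fold changes of 0.27, 0.45 and -0.46, the germline glh-1 and pgl-1 had -0.55 and -0.27, and the neuronal rab-3 and snb-1 had -0.61 and -0.11. The authors' tissue enrichment analysis linked the genes lower in HS to reproductive tissues. The markers glh-1 (adjusted p = 0.0365) and pgl-1 (adjusted p = 0.252) were also below 0, but so few markers do not stand for all germline genes. The muscle myosin unc-54 had 1.07 (adjusted p = 0.0391), and the vitellogenins vit-2 and vit-5 are described with the genes lower in daf-2 mutants. In RNA from whole animals, fewer cells of a type and less RNA per cell cannot be told apart, and the part of these markers in the pathway values was not tested. The authors relate the link to reproductive tissues to a likely delay of development under stress. Whether HS and CTRL animals differed in developmental stage, and the part of stage in the marker and pathway values, was not tested.

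The phosphatase and 1 of the kinases fell after HS, and the transcripts of the receptor, the PI3 kinase, both AKT kinases and both transcription factors were not called. All 10 genes reached the mean count of 100 and were tested. Of these, 2 were called as falls (daf-18 and pdk-1) and 0 as rises, and at an unadjusted p under 0.05 the counts were also 2 and 0. Of the PCGs at the same mean count, 25.7% had an unadjusted p under 0.05 with a value below 0 and 21.5% with a value above 0, and each count at this unadjusted p is to be read against these shares. A share of 2 in 10 is to be read against the 8.14% of PCGs called as falls, and with so few genes it is no result about the pathway as a whole. The median log2 fold change of the 10 genes was -0.25, against -0.09 for the PCGs. Disregarding direction, the median size of the change was 0.33 on the log2 scale for the pathway genes and 0.52 for the PCGs. For 7 of the 10 genes the 95% interval lay wholly within a 2-fold change in either direction, as it did for 43.3% of the PCGs.

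**Figure D1:**
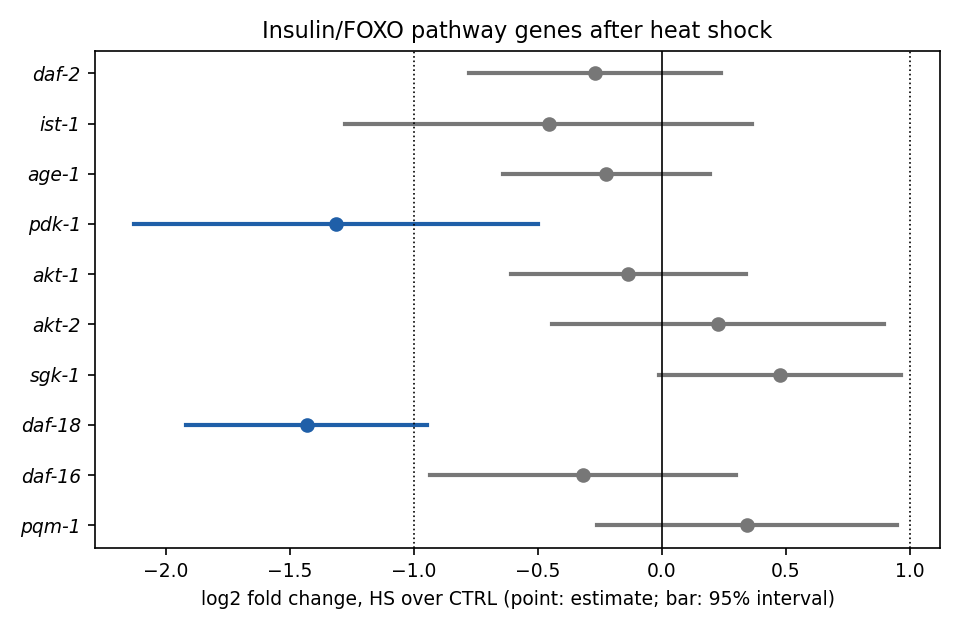
Log2 fold change (HS over CTRL) of each pathway gene (point) with its 95% interval (bar), in blue for the genes called as falls and in gray for the others; dotted lines mark a 2-fold change. The intervals of daf-18 and pdk-1 lie wholly below 0, and those of the other 8 genes include 0.

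The receptor gene daf-2 (WBGene00000898) encodes the insulin/IGF receptor relative of the worm. It covers 46333 bp on the minus strand of chromosome III (2994514 to 3040846, WBcel235), with 8296 bp of exon sequence. Its mean was 2186 normalized counts. The log2 fold change was -0.27 (standard error 0.26, adjusted p = 0.451), with an interval from -0.78 to 0.24. A fall of daf-2 by more than 1.72-fold and a rise by more than 1.18-fold lie outside this interval.

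The adaptor gene ist-1 (WBGene00002163; chromosome X, 7126648 to 7139666, plus strand) encodes a relative of the insulin receptor substrates of mammals. It was among the 2 genes with the lowest means, at 142 normalized counts, and its standard error of 0.42 was the largest of the 10. The log2 fold change of ist-1 was -0.46 (adjusted p = 0.423), with an interval from -1.27 to 0.36. This is the one uncalled gene whose interval extends beyond a 2-fold fall. With this error, a change of ist-1 would have had to reach 2.44-fold to be called, so a smaller change was not detectable here.

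AGE-1 and DAF-18 act on the same lipid in opposite directions, and their transcripts had different values. The gene age-1 (WBGene00000090; chromosome II, 11519328 to 11527054, minus strand), which encodes the catalytic subunit of the PI3 kinase, had a mean of 1189 normalized counts. Its log2 fold change was -0.22 (standard error 0.21, adjusted p = 0.443), and the interval from -0.64 to 0.19 was the narrowest of the pathway. The PCG Y62F5A.10 overlaps age-1 on the opposite strand, had a mean of 163.9 normalized counts and was itself called as a rise (log2 fold change 1.16). The libraries were stranded, but the strand setting of the counting is not stated, so reads of such a pair may not be told apart.

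The phosphatase gene daf-18 (WBGene00000913; chromosome IV, 420011 to 425177, minus strand) had the largest change and the highest mean of the 10 genes. Its mean was 3765 normalized counts, on 3333 bp of exon sequence in 7 blocks and a single annotated transcript. daf-18 fell by 1.43 on the log2 scale (standard error 0.25, adjusted p = 1.45e-07), a 2.70-fold fall with an interval from 1.93-fold to 3.77-fold. If both conditions contribute 3 libraries equally, the mean and the fold change together imply about 5493 normalized counts in CTRL and 2036 in HS. These implied levels carry no error of their own. The call of daf-18 was lost when 2-fold was the null of the test (adjusted p = 0.466) and under the t distribution with 4 degrees of freedom (0.0911), under which 0 genes of the whole table were called. Of the PCGs at or above the mean count of 100, 4.71% had a lower log2 fold change than daf-18. Among the genes of the comparison with a known position, no other gene overlaps daf-18. The nearest PCG upstream on its strand, Y66H1A.5, lies 2892 bp away and was not called (log2 fold change -0.40, adjusted p = 0.280). The intervals of daf-18 and age-1 do not overlap, but the difference between the 2 genes was not itself tested. Per kb of exon, the mean of daf-18 was 3.73 times that of age-1, and the implied ratio was 5.05 in CTRL and 2.19 in HS.

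The kinase gene pdk-1 (WBGene00003965; chromosome X, 1321344 to 1327986, plus strand) encodes the PIP3-dependent kinase that phosphorylates the AKT kinases and SGK-1. It fell by 1.31 on the log2 scale (standard error 0.42, adjusted p = 0.00794), a 2.48-fold fall with an interval from 1.41-fold to 4.37-fold. Its mean of 133 normalized counts was the lowest of the 10, and the implied levels were about 189.6 in CTRL and 76.3 in HS. By these levels, pdk-1 reached the minimum mean count only through CTRL. The call of pdk-1 is close to the threshold: its adjusted p was 0.0115 when the adjustment was extended to all genes that have a p-value, and 0.0142 when changes were taken relative to the median PCG, and neither passes. The small PCG F21E9.2 lies across pdk-1 on the opposite strand, with a mean of 17.3 normalized counts and a log2 fold change of 5.21 (standard error 1.37). Upstream on the same strand, 4703 bp away, H42K12.3 had a log2 fold change of 7.21 (standard error 1.31) and no adjusted p-value. Both neighbors had values above 0 and pdk-1 a value below 0, and their part in the counts of pdk-1 was not tested.

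The downstream kinases are closely related serine/threonine kinases, and none of them was called. For akt-1 (WBGene00000102; chromosome V, 10248905 to 10252845, plus strand), with a mean of 2072 normalized counts, the log2 fold change was -0.13 (standard error 0.24, adjusted p = 0.710), the smallest change of the 10 genes. For its paralog akt-2 (WBGene00000103; chromosome X, 14147700 to 14152070, plus strand), with a mean of 305 normalized counts, it was 0.23 (standard error 0.34, adjusted p = 0.647). The interval of akt-1 ran from -0.61 to 0.34 and that of akt-2 from -0.44 to 0.90, so both lie within a 2-fold change and they overlap each other. akt-1 was the more abundant paralog, with 7.11 times the mean of akt-2 per kb of exon. The gene rop-1, which encodes a Ro RNA-binding protein, overlaps akt-1 on the opposite strand with a mean of 2973 normalized counts and a log2 fold change of -0.40 (adjusted p = 0.182), so the level of akt-1 is uncertain unless strand was used in counting.

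The kinase gene sgk-1 (WBGene00004789; chromosome X, 16254842 to 16262122, minus strand) encodes a serum- and glucocorticoid-regulated kinase relative that also acts in the TORC2 pathway. Its log2 fold change of 0.48 was the highest of the 10 genes (standard error 0.25, adjusted p = 0.131), at a mean of 652 normalized counts. The interval ran from -0.01 to 0.97, and the unadjusted p was 0.0561. Relative to the median PCG, the log2 fold change of sgk-1 was 0.56 with an adjusted p of 0.0690. In both cases sgk-1 was not called, and the interval leaves room for a rise of just under 2-fold. Its closest upstream neighbor on the minus strand, mua-6, lies 166 bp away, with a mean of 1988 normalized counts and a log2 fold change of 0.76 (adjusted p = 0.204), and its part in the counts of sgk-1 was not tested.

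Neither transcription factor gene was called. The FOXO gene daf-16 (WBGene00000912) lies on the plus strand of chromosome I (10750498 to 10776703) and has 11 annotated transcripts, more than any other of the 10 genes. Its log2 fold change was -0.32 (standard error 0.31, adjusted p = 0.463), with an interval from -0.94 to 0.30, at a mean of 1042 normalized counts. Counts were summed over the whole gene, so a shift between the daf-16 isoforms would not be seen. The gene pqm-1 (WBGene00004096; chromosome II, 11150391 to 11152595, minus strand) encodes a C2H2 zinc finger factor that binds the DAF-16-associated element. Its log2 fold change was 0.34 (standard error 0.31, adjusted p = 0.411), with an interval from -0.26 to 0.95, at a mean of 603 normalized counts. The values of daf-16 and pqm-1 had opposite signs, but both intervals include 0 and they overlap, so no difference in direction can be read from them. The PCG upstream of pqm-1 on the same strand, the Patched-related ptr-13 at 3993 bp, was called as a fall (log2 fold change -2.50).

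Compared per kb of exon, which removes the effect of gene length on the counts, the order of mean levels was daf-18 (1129 normalized counts per kb), akt-1 (909.5), pqm-1 (554), sgk-1 (398.5), age-1 (303), daf-16 (283), daf-2 (263.5), akt-2 (128), pdk-1 (54.9) and ist-1 (35.8). The median PCG at or above the mean count of 100 had 381 normalized counts per kb. Thus 4 of the 10 genes lay above this median PCG, and pdk-1 and ist-1 lay at percentiles 2.42 and 0.499 of the same PCGs. PCGs with a mean below 100 are left out, so these are not percentiles among all PCGs. These are the authors' means over both conditions, which have no spread over libraries here, so neighbors in the order such as age-1, daf-16 and daf-2 cannot be ranked against each other. The implied level of daf-18 went from 1648 normalized counts per kb in CTRL to 611 in HS, beside 867 for akt-1 and 620 for pqm-1. For pdk-1 it went from 78.3 to 31.5, beside 30.2 for ist-1 in HS. These implied values have no spread either, so they do not rank the genes within a condition.

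**Figure D2:**
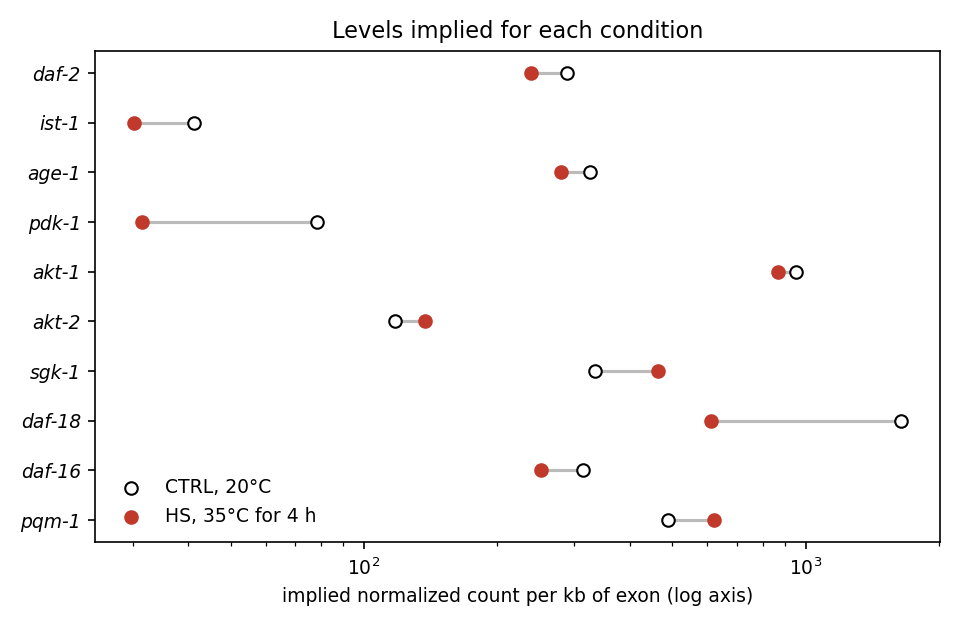
Normalized count per kb of exon implied for CTRL (open circles) and HS (red circles) by the mean over 6 libraries and the fold change, on a log axis, with a line joining the conditions of each gene; no error is drawn. The longest lines are those of daf-18 (1648 to 611) and pdk-1 (78.3 to 31.5), and only akt-2, sgk-1 and pqm-1 have the HS point on the right.

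Standard errors ran from 0.21 for age-1 to 0.42 for ist-1 on the log2 scale, against a median of 0.28 for the PCGs. Each gene was also set beside the PCGs with a mean within 2-fold of its own, whose median standard error was 0.22 for daf-18, 0.36 for pdk-1 and 0.24 for daf-16. Of the 10 genes, age-1 and sgk-1 had smaller errors than such PCGs (0.21 against 0.24, and 0.25 against 0.26), and the other 8 had larger ones, as in daf-16 with 0.31 against 0.24. A 2-fold change would have been enough for a call in 7 of the 10 genes, while akt-2, pdk-1 and ist-1 needed 2.07-fold, 2.43-fold and 2.44-fold.

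The ligands of DAF-2 were mostly too rare to test well. The table lists 38 insulin-like peptide genes (the ins- genes and daf-28), of which 36 had means below 100 normalized counts. The remaining 2 were ins-27 and ins-17. ins-27 (WBGene00002110; chromosome I, 14027236 to 14027588) rose 4.39-fold, with a log2 fold change of 2.13 (standard error 0.40, adjusted p = 1.88e-06), at a mean of 127 normalized counts. ins-17, singled out after its values were seen, had a log2 fold change of 0.65 (adjusted p = 0.142). The implied levels in CTRL and HS were 47.1 and 207 normalized counts for ins-27 and 84.7 and 132.5 for ins-17. Both thus reached the mean of 100 only through HS, and this minimum favors ligands that are high in HS. Below it, 3 ligands, named after their values were seen, passed the adjusted p in both directions. These were ins-39 (log2 fold change 6.65, adjusted p = 0.000838) and ins-4 (1.95, adjusted p = 0.00312) above 0, and ins-22 (-5.65, adjusted p = 0.00691) below 0. Their means were 6.399 normalized counts for ins-39, 54.72 for ins-4 and 6.476 for ins-22, so none was called. The large changes of ins-39 and ins-22 thus rest on very few counts. The ligand daf-28, whose loss favors dauer formation, had a mean of 13.9 normalized counts and a log2 fold change of -0.19 with a standard error of 0.91, so that a change below 6.96-fold could not have passed the test.

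Beside the 10 genes, 15 other genes of the kinase branch were examined, among them the PI3 kinase adaptor aap-1, the TOR complex genes let-363, daf-15 and rict-1, and the eak genes that act in parallel to akt-1. Of the 9 with a mean of at least 100, 0 were called in the Wald test, against 8.14% of the PCGs as falls and 11.3% as rises. Of the same 9, 3 had an unadjusted p under 0.05, each with a value below 0, against 25.7% of the PCGs. The median log2 fold change of the 9 genes was -0.42, with a range from -0.62 to 0.18, against -0.09 for the PCGs. aap-1, the partner of AGE-1, had a log2 fold change of -0.43 (adjusted p = 0.251).

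Of 13 regulators and cofactors of DAF-16, 11 had a mean of at least 100. Of the 11, 1 rose and 0 fell, against 11.3% and 8.14% of the PCGs. At an unadjusted p under 0.05, 2 of the 11 were above 0 and 4 were below 0, against 21.5% and 25.7% of the PCGs. kri-1 (WBGene00013955; chromosome I, 8226494 to 8240637), which encodes the worm KRIT relative needed for DAF-16 activity in animals without a germ line, rose 3.57-fold, with a log2 fold change of 1.84 (standard error 0.44, adjusted p = 0.000233). The implied levels of kri-1 were 61.6 normalized counts in CTRL and 220.2 in HS, so it reached the mean of 100 only through HS. Another 2 passed the adjusted p but not the 2-fold minimum, and are named after their values were seen. These were hcf-1, a nuclear partner that restrains DAF-16, at -0.75 (adjusted p = 0.00355), and imb-2, a nuclear import receptor that carries DAF-16, at -0.70 (adjusted p = 0.00273). The median of the 11 genes was -0.25.

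Genes known to be higher in daf-2 mutants, in which DAF-16 is active, moved in both directions. Of 12 such genes, 9 had a mean of at least 100, with a median log2 fold change of 0.40. Of the 9, 2 were called as rises and 1 as a fall, against 11.3% and 8.14% of the PCGs. At an unadjusted p under 0.05, 4 were above 0 and 1 was below 0, against 21.5% and 25.7% of the PCGs. hsp-12.6 (WBGene00002013), a small heat shock protein gene, rose 104-fold (log2 fold change 6.70, standard error 0.59, adjusted p = 2.90e-27). The implied levels of hsp-12.6 were 3.23 normalized counts in CTRL and 336.8 in HS, so it reached the mean of 100 only through HS. icl-1 (WBGene00001564), which encodes a bifunctional enzyme of the glyoxylate cycle, rose 2.25-fold (adjusted p = 0.000634). sip-1 (WBGene00004798), another small heat shock protein gene, fell by 1.98 on the log2 scale (adjusted p = 7.64e-11). The catalase gene ctl-2, named after its values were seen, passed the adjusted p (0.000868) with a 1.95-fold difference, short of the 2-fold minimum. The superoxide dismutase gene sod-3, a standard reporter of DAF-16 activity, had a mean of 38.0 normalized counts and a log2 fold change of 0.97 (standard error 0.60, adjusted p = 0.213). The metallothionein gene mtl-1, at a mean of 63.0 normalized counts, had a log2 fold change of 2.73 (adjusted p = 0.00417) and was not called because of its low mean. The 3 genes of this list below the mean of 100 were all above 0.

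Among genes known to be lower in daf-2 mutants, those with enough counts had values below 0. Of 13 such genes, 8 had a mean of at least 100, and these 8 were below 0 with a median log2 fold change of -1.07, against 54.8% of the PCGs below 0. Of the 5 with lower means, 4 were above 0 and 1 was below. One of the 4, gcy-6, named after its values were seen, passed the adjusted p (log2 fold change 3.85, adjusted p = 0.00988). With a mean of 8.94 normalized counts, gcy-6 was not called. Of the 8, 2 were called as falls and 0 as rises, against 8.14% and 11.3% of the PCGs. Of the same 8, 5 had an unadjusted p under 0.05, all below 0, against 25.7% of the PCGs. dod-23 (WBGene00009898) fell by 2.31 on the log2 scale (standard error 0.56, adjusted p = 0.000289) and dod-17 (WBGene00010745) by 1.43 (standard error 0.32, adjusted p = 8.01e-05). The vitellogenin genes vit-2 and vit-5, yolk protein genes of the adult intestine that belong to the same list, had values of -2.13 and -3.11 with standard errors of 1.00 and 1.36 and were not called (adjusted p = 0.0873 for vit-2 and 0.0660 for vit-5). The lists were described by their counts only, so none of them is shown to differ from the PCGs.

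**Figure D3:**
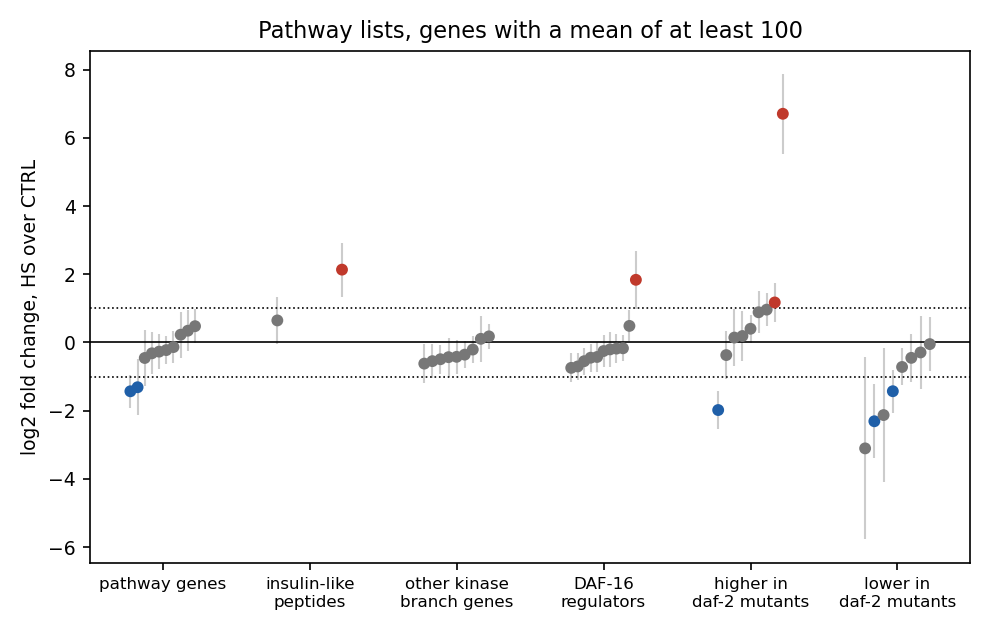
Log2 fold change (HS over CTRL) of the 10 pathway genes and for the genes of each list with a mean of at least 100 normalized counts, with 95% intervals (bars), in red for rises, blue for falls and gray for genes not called; dotted lines mark a 2-fold change. The 9 other kinase branch genes lie between -0.62 and 0.18, while the genes higher in daf-2 mutants run from -1.98 (sip-1) to 6.70 (hsp-12.6).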

How the data were processed

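RNA-seq of 6 whole-animal libraries (CTRL and HS, 3 each) was analyzed from the table of the authors' comparison. The authors trimmed reads with fastq-mcf, aligned them to WS235 with STAR, counted genes of Ensembl 88 with featureCounts and ran DESeq2. Tool versions and the strand setting are not given in the sources used here. The signal deposited by the authors is the mean of counts divided by size factors over the 6 libraries. The log2 fold change, its standard error and the Wald score were deposited by the authors for HS over CTRL. Each p-value and adjusted p-value was also deposited by the authors and served to mark the genes tested and to check the computation. These columns hold the authors' own comparison, so the test is theirs in substance. Wald tests and Benjamini-Hochberg adjustment were computed again from the fold changes and standard errors across all genes, and differed from the deposited adjusted values by at most 6.16e-15. They were tested on simulated data.

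Genes were matched by WormBase identifier, and 28726 of 31180 had a symbol. PCGs, positions and exon lengths (union of exons) come from Ensembl 115 for WBcel235, the same assembly as WS235. Intervals are 95% normal intervals. Counts of single libraries, and with them depth and a count model fit, were not analyzed here. The pathway genes and lists were chosen with earlier results of these data known. All 10 pathway genes were named, and from each list the called genes; others were named after their values were seen. Alternatives were mean count minimums of 10 and none, an adjusted p of 0.05, no fold minimum and a 4-fold minimum, a test against a 2-fold change, a t distribution with 4 degrees of freedom, adjustment extended to all genes that have a p-value, and centering on the median PCG. The software was scipy 1.17.1 and numpy 2.4.6 with pandas 2.3.3 under Python 3.11.15, and matplotlib 3.10.9 for plots.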

Additional observations from a re-analysis of the deposited data

How the results depend on the processing

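The number of pathway genes called, 2 in the analysis as reported, was 1 (daf-18) when adjustment was extended to all genes that have a p-value and under centering on the median PCG, and 0 with a 4-fold minimum, with the t distribution and when 2-fold was the null of the test. Over the whole table, 1366 genes rose and 815 fell. The rises became 2386 with a mean minimum of 10, 2771 with no minimum, 739 with a 4-fold minimum and 601 when 2-fold was the null. The falls became 1276 with no fold minimum, 207 with a 4-fold minimum and 126 when 2-fold was the null. With the t distribution 0 genes rose and 0 fell, against 1475 and 877 at an unadjusted p under 0.05. The insulin-like peptides called went from 1 to 2 with a mean minimum of 10, where ins-4 was added, and the genes higher in daf-2 mutants called went from 3 to 4, where mtl-1 was added. For pdk-1, the log2 fold change of -1.31 no longer passed under the t distribution (adjusted p = 0.171) or with the extended adjustment (0.0115), and neither did the centred value of -1.23 (0.0142). For daf-18, the value of -1.43 passed with the extended adjustment and the centred value of -1.34 (9.21e-07) passed too, while -1.43 did not pass under the t distribution (0.0911) or when 2-fold was the null (0.466). Among the alternatives, only centering altered the log2 fold changes, by 0.0873. The smallest change of the 10 genes was larger than this (akt-1, -0.13), so no direction could have turned. No paired analysis was possible because values of single libraries were not analyzed here, and for the same reason no replicate was left out in turn. Depth could not be weighed, and most insulin-like peptide genes had too few counts for a change to be detectable.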

Other observations

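Genes named daf- were first found through abnormal dauer formation, and the 23 of them outside the 10 pathway genes were listed after the data were seen. Of these, 15 had a mean of at least 100 normalized counts, and 1 rose while 0 fell, against 11.3% and 8.14% of the PCGs. daf-6 (WBGene00000902), a Patched-related gene of the glia and channels around sensory neurons, rose 9.96-fold (log2 fold change 3.32, standard error 0.65, Wald test adjusted p = 5.24e-06). The implied levels of daf-6 were 21.9 normalized counts in CTRL and 218.5 in HS, so it reached the mean of 100 only through HS. Below this mean, daf-42 passed the adjusted p (log2 fold change 4.93, adjusted p = 0.00091) at a mean of 14.4 normalized counts, and was not called. At an unadjusted p under 0.05, 4 of the 15 genes were above 0 and 3 were below 0, against 21.5% and 25.7% of the PCGs, and their median log2 fold change was -0.26. Within the TGF-beta branch of dauer control, the receptor gene daf-4 had a log2 fold change of -0.83 (adjusted p = 0.00380), short of the 2-fold minimum. The SMAD genes daf-14 and daf-8 stood at 0.99 (adjusted p = 0.0113) and 0.97 (adjusted p = 0.0342) and were not called. Also uncalled in this branch were daf-1, daf-3 and daf-5, at -0.61, -0.54 and -0.38, and daf-7. The value of daf-7 was 1.15 (adjusted p = 0.0168), at a mean of 89.6 normalized counts. In the steroid hormone branch, the oxygenase gene daf-36 stood at -0.89 (adjusted p = 0.0123) and the receptor gene daf-12 at 0.74 (adjusted p = 0.230), and neither was called.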
